A study of Mus musculus with 9 samples.

Results

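The genes described here are the mouse transcription factors of the FOX, SOX and T-box families, chosen by their symbols alone: Foxa to Foxs, Sox or Tbx followed by a number. The deposited table holds 76 such genes among 36410 rows, of which 44 are FOX genes, 19 are SOX genes and 13 are T-box genes. Their ribosome footprints were counted in 3 immortalized striatal cell lines with 3 libraries each. The control line is STHdhQ7/Q7, the line called HD-het is STHdhQ7/Q111, and the one called HD-homo is STHdhQ111/Q111. The paper describes the lines as knock-in models. By its account the control line came from WT embryos, HD-het from HdhQ7/Q111 embryos and HD-homo from HdhQ111/Q111 embryos of mice. Htt exon 1 thus has 7 glutamine codons on both alleles in control, 7 on 1 allele and 111 on the other in HD-het, and 111 on both in HD-homo. The labels give the strain of all 9 samples as C57/BL6, and every culture received cycloheximide, a drug that stops ribosomes during elongation, before lysis. Fragments of 26 to 32 nt were taken from the 80S monosome fraction. No drug or age separates the groups in the labels, but each line comes from different animals. A genotype here is 1 line, and the effects of genotype and of line cannot be told apart in any comparison below. The 3 libraries of a line came from separate rounds of culture, and the p-values measure the spread between those rounds.

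All 3 families bind DNA through a domain that gave the family its name. FOX proteins carry the forkhead box, a winged-helix fold; SOX proteins carry the HMG box, which binds the minor groove and bends the DNA; T-box proteins carry a large domain first described in Brachyury. Members of each family mark and maintain cell identities in the embryo: SOXB1 proteins hold neural progenitors, FOXP1 and FOXP2 are used by striatal projection neurons, and FOXC, FOXF and several T-box proteins act in mesenchyme, meninges and the cells that wrap vessels. SOX and FOX genes often have 1 coding exon and closely similar DNA-binding domains, so the same family can hold genes whose short footprints look alike.

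To show how alike these domains are at footprint length, the 27 coding bases that encode 1 conserved piece of the domain are given for some of the members described below. They were read from the longest coding transcript of GENCODE M21 on GRCm38, 5′ to 3′ on the coding strand. Each is given with the RefSeq interval of the gene and the position in the coding sequence counted from its first base. Capitals mark bases that differ from the first sequence of the family.
Sox2 (chr3:34649995-34652461, bases 133 to 159): aggcccatgaacgccttcatggtatgg
Sox11 (chr12:27334268-27342718, bases 151 to 177): CggcccatgaacgccttcatggtGtgg
Sox4 (chr13:28948919-28953699, bases 181 to 207): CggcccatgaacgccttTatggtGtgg
Sox9 (chr11:112782210-112787757, bases 319 to 345): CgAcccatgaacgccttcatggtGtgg
Sox5 (chr6:143828425-144782287, bases 1672 to 1698): CgTccAatgaaTgccttcatggtGtgg
Sox6 (chr7:115470872-116040776, bases 1867 to 1893): CgAccAatgaaTgcGttcatggtTtgg
Foxf1 (chr8:121084386-121088154, bases 142 to 168): aagccgccctactcgtacatcgcgctc
Foxf2 (chr13:31625816-31631406, bases 298 to 324): aagccTccTtactcgtacatcgcgctc
Foxc1 (chr13:31806646-31810635, bases 232 to 258): aagccgccctacAGCtacatcgcTctT
Foxc2 (chr8:121116171-121118895, bases 211 to 237): aagccgccctacAGCtaTatAgcgctc
Foxs1 (chr2:152931898-152933208, bases 52 to 78): aagccCccTtacAGCtacatAgcCctG
Tbx20 (chr9:24720812-24774303, bases 553 to 579): cacccagactccccctttactggcgag
Tbx3 (chr5:119670534-119684724, bases 559 to 585): cacccGgacAGccccGCtacGggGgag
Tbx18 (chr9:87702800-87731260, bases 691 to 717): caTccagactcAccGGCCTctggGgag
Sox11 differed from Sox2 at 2 of these bases and Foxf2 from Foxf1 at 2, whereas Foxs1 differed from Foxf1 at 8 and Tbx18 from Tbx20 at 8. No pair in these sets was identical over the stretch. Over whole coding sequences, the share of windows of 26 nt that also occur in the coding sequence of another gene had a median of 0.531% and was 0 for 29 of the 76 members. It was 7.13% for Foxd1. The counting rule for fragments with several matches was not given in the sources used here, so values of near-identical stretches stay uncertain. For a low gene that shares windows with a much higher one, the share does not bound this uncertainty.

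The libraries held 22504543 to 41888701 counts, and replicates of a line correlated at 0.988 or more across genes, which are not independent replicates. Levels are given as CPM, counts per 1000000 of the scaled library total, and 3 counts, as much as a reading of 0 leaves possible, lay between 0.0714 and 0.142 CPM. That limit covers counting error only. A footprint level joins the amount of an mRNA with the ribosomes on it, and in these bulk samples fewer cells of a type and less RNA per cell cannot be told apart. Htt itself had a mean CPM of 28.7 ± 1.07 (control), 20.3 ± 0.818 (HD-het) and 6.62 ± 0.971 (HD-homo; SD, n = 3), which does not check the length of the repeat. Of 20 markers of striatal projection neurons, 6 passed the filter on low counts, Drd1 and Drd2 were at 0 in every library, and 8, among them Pdyn, Gad1 and Bcl11b, never exceeded 3 counts. The label striatal thus names the origin of the lines, while the defining receptors of mature striatal neurons were absent from the footprints.

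Of the 76 members, 36 reached a mean of at least 1 CPM in some line and 22 reached at least 10 CPM. There were 20 members that never exceeded 3 counts in a library, including Foxh1, Foxi1, Foxr1, Foxr2 and Tbx21, which were at 0 in all 9. The filter for the test kept 40 members, 25 FOX, 11 SOX and 4 T-box genes, and the other 36 are described without a test. Per kilobase of coding sequence, high mean levels over the 9 libraries were those of Sox4 (30.5 CPM per kb), Sox2 (30.3), Foxn2 (27.8), Foxj3 (26.5), Sox9 (24.1), Foxo1 (23.0), Sox11 (21.2), Foxp1 (21.0) and Foxf1 (19.3). The leading member was a different one in each line: Sox2 in control (53.3 CPM per kb), Foxf1 in HD-het (46.4 CPM per kb) and Sox9 in HD-homo cells (45.0 CPM per kb). Summed over all members, the footprints came to a mean CPM of 614 ± 14.6 (control), 621 ± 22.8 (HD-het) and 608 ± 8.26 (HD-homo; SD, n = 3). The ranges of these sums overlapped, while the make-up behind them differed.

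**Figure D1:**
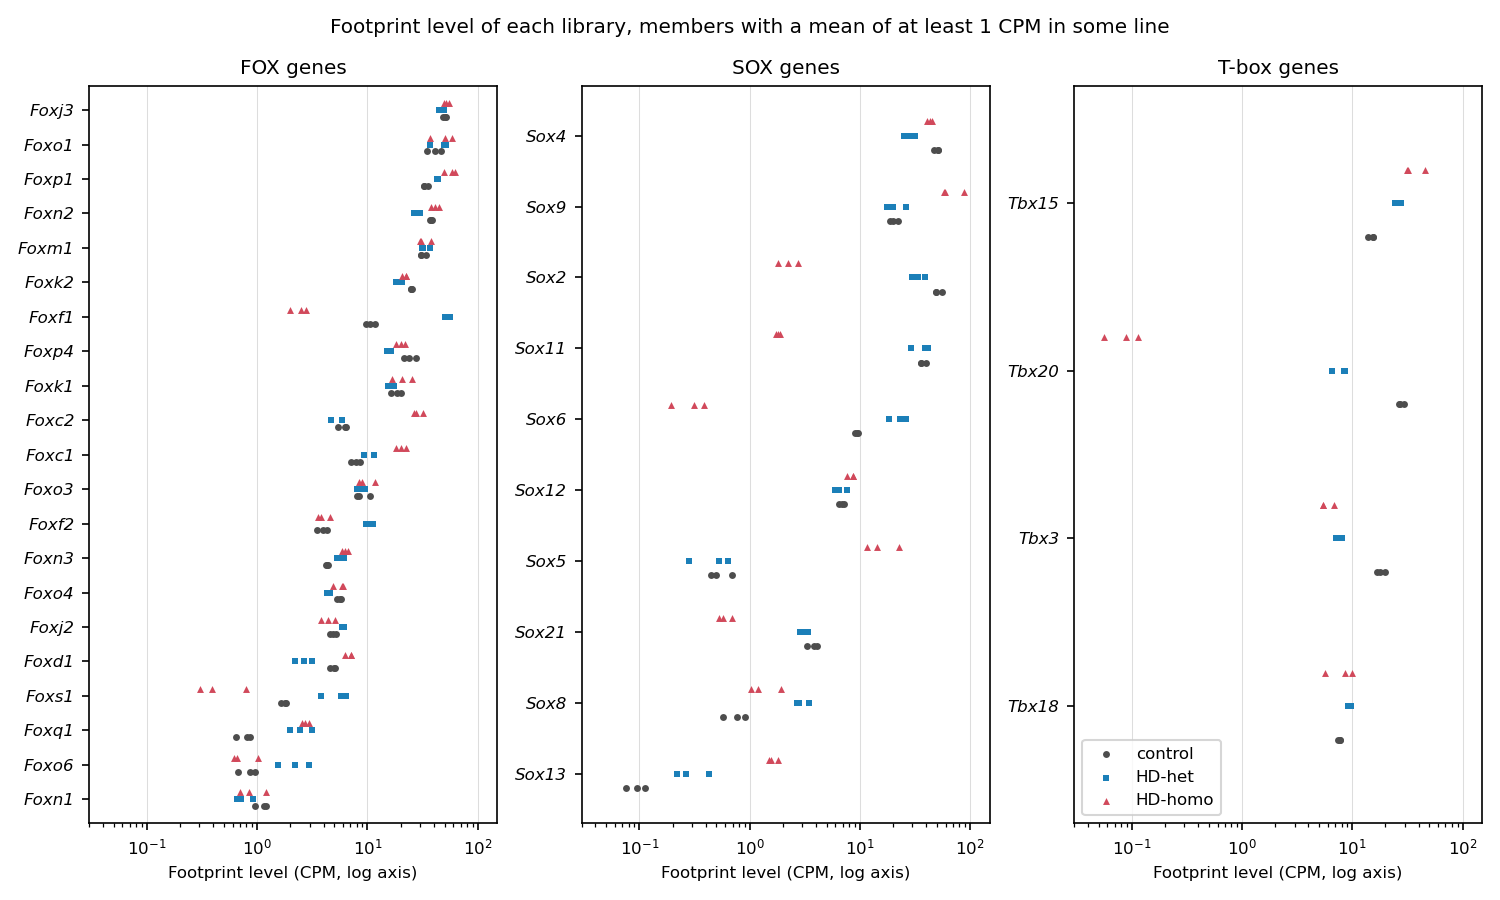
Footprint level in CPM on a log axis for 35 of the 36 members with a mean of at least 1 CPM in some line, by family. Each symbol is 1 library; Tbx20, Sox6, Sox5, Sox2, Sox11 and Foxf1 spread widest between lines, while Foxm1, Foxo1 and Foxo3 overlapped in all 3.

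A test of any difference among the 3 lines called 31 of the 40 tested members (18 FOX, 10 SOX and 3 T-box genes) at an adjusted p-value under 0.05, where 78.4% of all 12678 tested genes were called. The first pairwise question is what goes along with 1 expanded allele, in HD-het against control. Of the 40 tested members, 22 were called, where 60.1% of all tested genes were. Here 12 members were higher (31.0% of all tested genes were) and 10 were lower (29.1% of all), led by rises of Foxf1, Sox8, Foxq1, Foxs1, Foxo6 and Foxf2 and by falls of Tbx20, Tbx3, Foxd1, Sox4, Foxp4 and Sox2. A change of at least 2-fold was called in 8 rising members (13.9% of all tested genes) and 3 falling ones (6.91% of all), and of at least 4-fold in 2 members (7.7% of all). The libraries of the lines did not overlap for 25 members (71.2% of all). The median log2 fold change was -0.03 over the tested members and 0.02 over all tested genes.

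With both alleles expanded, 23 of the 40 were called against control, where 45.7% of all tested genes were. In HD-homo cells 13 members were higher (23.3% of all tested genes were) and 10 were lower (22.3% of all), with rises of Sox5, Sox13, Foxc2, Foxq1, Sox9 and Foxc1 and falls of Tbx20, Sox6, Sox2, Sox11, Sox21 and Foxf1 in front. At least 2-fold changes were called in 8 rising members (8.94% of all tested genes) and 9 falling ones (8.27% of all). At least 4-fold changes were called in 10 of the 40 members, against 9.41% of all tested genes, and 6 of the 10 were SOX genes. The libraries did not overlap for 27 members (55.5% of all). The median log2 fold change was 0.06 over the tested members and 0.02 over all tested genes.

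Between the mutant lines, 15 members were higher in HD-homo than HD-het (34.6% of all tested genes were) and 13 were lower (32.8% of all). All 11 tested SOX genes were called in this comparison, 6 higher and 5 lower, where 67.5% of all tested genes were called. Among these, the call of Sox12 was lost under some alternatives, as given below. At least 2-fold changes were called in 8 rising members (11.1% of all tested genes) and 10 falling ones (16.2% of all), and at least 4-fold changes in 10 (12% of all). The libraries did not overlap for 31 members (69.5% of all). Members called in all 3 comparisons were Foxc1, Foxd1, Foxf1, Foxp1, Foxs1, Sox2, Sox6, Sox8, Sox13, Tbx3, Tbx15 and Tbx20. The share of all tested genes called in all 3 was not worked out, so nothing is read from their number. For each of Foxc1, Foxd1, Sox8 and Tbx3, 1 of the 3 calls was lost under some alternatives, as given below. The 3 comparisons share libraries, so their counts are not independent of each other.

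**Figure D2:**
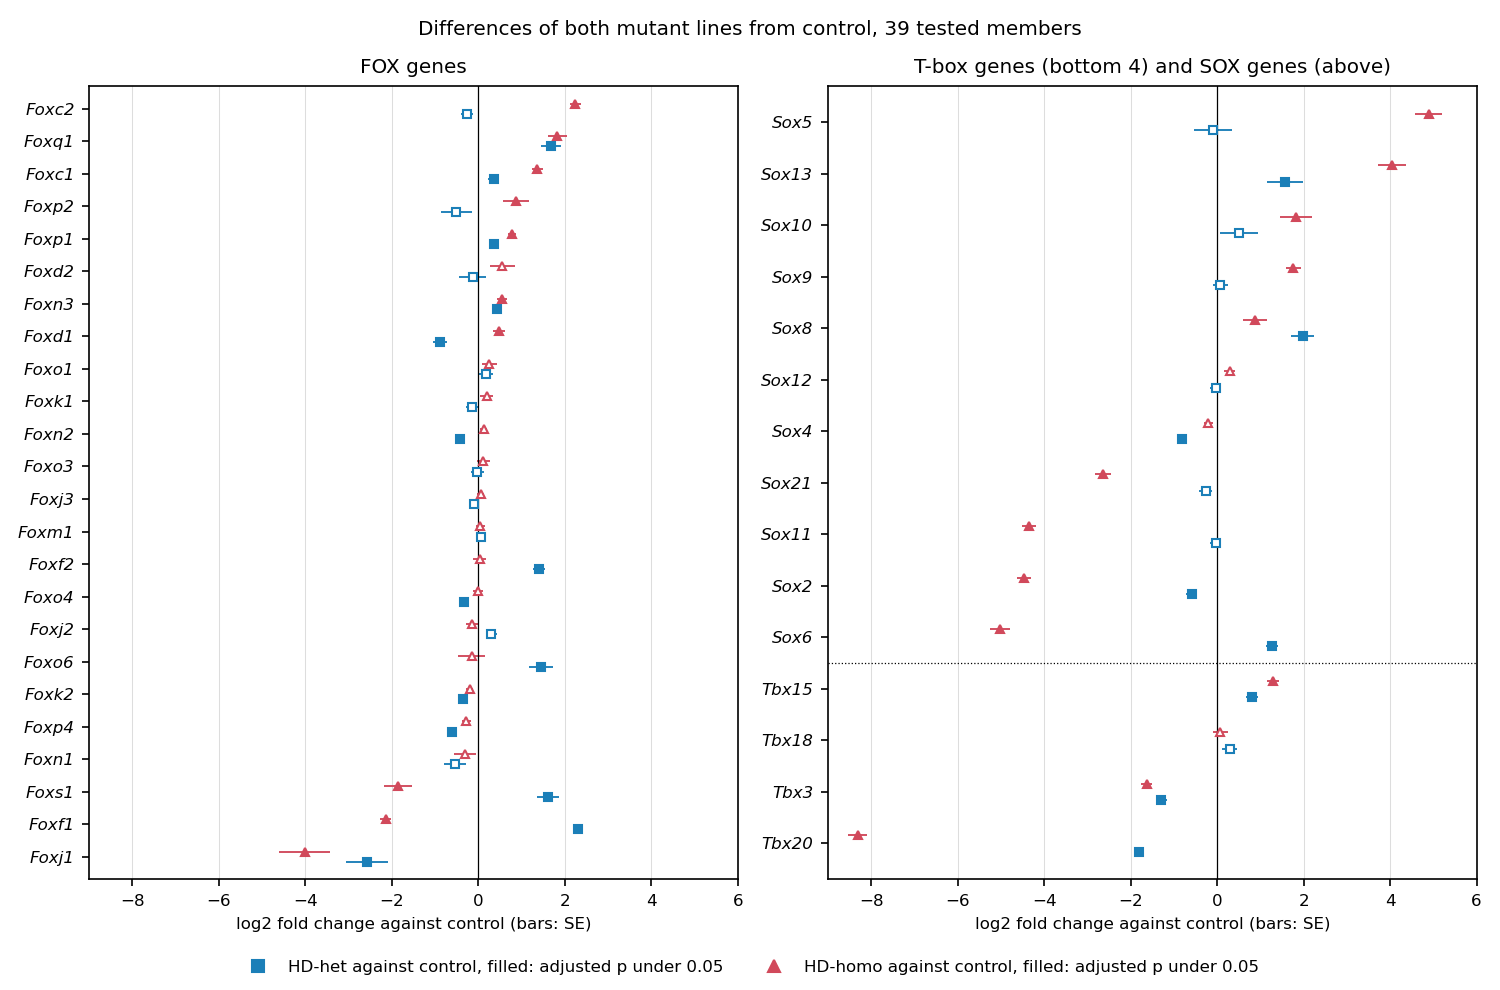
Log2 fold change of HD-het (squares) and HD-homo (triangles) against control for 39 of the 40 tested members, with bars of 1 SE and filled symbols for an adjusted p under 0.05. Foxf1, Foxs1 and Sox6 lay to the right of 0 in HD-het and to the left of 0 in HD-homo cells, and Foxd1 the other way round, each past the threshold on both sides.

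Sox2, the main SOXB1 gene here, which keeps neural progenitors undifferentiated, was 22.2-fold lower in HD-homo than control cells. Sox2 had CPM of 49.5, 48.5 and 55.4 (control), 38.6, 29.5 and 33.7 (HD-het) and 2.75, 2.22 and 1.82 (HD-homo). All 3 lines were apart from each other, with control highest. Here and below, a value followed by an SE is a log2 fold change from the edgeR fit with its Benjamini-Hochberg adjusted p-value. Its log2 fold change was -0.59 (SE 0.13, adjusted p = 0.00194) in HD-het against control, -4.47 (SE 0.16, adjusted p = 3.02e-09) in HD-homo against control and -3.88 (SE 0.16, adjusted p = 5.28e-09) in HD-homo against HD-het. The other SOXB1 genes, Sox1 and Sox3, were too low for the test. Sox1 had 5, 12 and 10 counts in control, 4, 9 and 5 in HD-het and 0 in each HD-homo library, where a count of 0 allows up to 0.133 CPM. Sox3 had 6 to 12 counts in the control and HD-het libraries and 2 or 3 in the HD-homo libraries. Sox21, a SOXB2 protein that counteracts SOXB1 proteins, had CPM of 3.32, 3.81 and 4.06 (control), 3.07, 2.89 and 3.40 (HD-het) and 0.528, 0.688 and 0.576 (HD-homo). Its HD-homo libraries lay below all others, with a log2 change of -2.65 (SE 0.19, adjusted p = 6.43e-07) against control, while HD-het and control overlapped and their difference was -0.26 (SE 0.15, adjusted p = 0.157). The second SOXB2 gene, Sox14, was not tested and had 12 to 15 counts in control, 6 to 10 in HD-het and 1 or 2 in HD-homo libraries. Windows of 26 nt that also occur in another gene numbered 35 of 806 in Sox21, 53 of 1151 in Sox1, 37 of 1328 in Sox3 and 10 of 698 in Sox14. For each of them the sharing genes included Sox2, whose level in control was far higher. The part of such fragments in their counts was not tested.

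Each list of related genes below is given by its counts of calls and its median, to be read beside the shares over all tested genes given above and a median of 0.02 over all tested genes in each comparison. The first holds genes of neural progenitors. Of 16 such genes, 12 were tested: 5 rose and 3 fell in HD-het against control (median log2 fold change of those tested 0.07), 5 rose and 5 fell in HD-homo against control (median -0.34), and HD-homo was above HD-het in 4 and below it in 7 (median -0.50). Without Prom1, which never exceeded 1 count in a control or HD-homo library, the second of these medians was -0.11. Nes, the intermediate filament of neural progenitors, stood at a mean CPM of 399.5 ± 82.6 (control), 1086 ± 77.8 (HD-het) and 7.01 ± 0.611 (HD-homo; SD, n = 3). Pax6, a homeobox factor of telencephalic progenitors, stood at a mean CPM of 17.3 ± 1.41 (control), 24.8 ± 1.48 (HD-het) and 0.0759 ± 0.0704 (HD-homo; SD, n = 3). Both were thus higher in HD-het than in control (log2 fold changes 1.44 and 0.52) and lower in HD-homo than control, all called. The log2 fold change of Nes in HD-homo against control was -5.83. Pax6 had only 5, 0 and 2 counts in the HD-homo libraries, and its summed counts were 207-fold lower than in control (counting interval 100.3 to 516, adjusted p = 3.47e-09). Slc1a3, the glutamate transporter of radial glia and astrocytes, went up in HD-homo cells, from 1.67 ± 0.684 in control to 11.7 ± 1.21 CPM (SD, n = 3; log2 fold change 2.81, SE 0.27, adjusted p = 7.4e-06). Hes5, Neurog2 and Gsx2 were at 0 in every library.

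The SOXC genes, which act in young neurons and in mesenchyme, each had their own order of lines. Sox11 had CPM of 40.1, 35.8 and 35.6 (control), 38.7, 28.9 and 41.8 (HD-het) and 1.89, 1.80 and 1.73 (HD-homo). The HD-homo libraries lay 20.4-fold below control, with a log2 change of -4.35 (SE 0.16, adjusted p = 3.6e-09) against control and -4.32 (SE 0.16, adjusted p = 3.04e-09) against HD-het. Control and HD-het overlapped, with a difference of -0.03 (SE 0.13, adjusted p = 0.856). Sox4 had CPM of 51.3, 46.7 and 50.8 (control), 27.6, 25.2 and 31.9 (HD-het) and 43.6, 40.5 and 45.0 (HD-homo). It was lowest in HD-het, with a log2 change of -0.81 (SE 0.10, adjusted p = 3.9e-05) against control, and HD-homo was 0.61 (SE 0.10, adjusted p = 0.000227) above HD-het while its difference from control, -0.21 (SE 0.10, adjusted p = 0.111), did not pass. Sox12 stood at a mean CPM of 6.83 ± 0.370 (control), 6.65 ± 0.848 (HD-het) and 8.32 ± 0.521 (HD-homo; SD, n = 3) and was called only between the mutant lines, at 0.33 (SE 0.13, adjusted p = 0.0369). That call was lost in DESeq2 (0.31), with only the 6 libraries compared (0.30), with offsets for GC content and coding length (0.12), and without HD-het replicate 2 or 3, HD-homo replicate 1 or 2, or control replicate 1 or 2 (0.25 to 0.33). Beside Sox11, the pan-neuronal markers were as follows: of 12, 6 were tested, and 0 rose and 3 fell in HD-het against control (median log2 fold change of those tested -0.42), 0 rose and 4 fell in HD-homo against control (median -1.47), and HD-homo was above HD-het in 1 and below it in 3 (median -0.40). Their summed level ran from 222 to 265 CPM (control), 145 to 159 CPM (HD-het) and 149 to 159 CPM (HD-homo), Snap25, Syt1 and Elavl3 never exceeded 3 counts, and their part in the Sox11 result was not tested.

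The SOXD genes, long SOX proteins without a transactivation domain that pair with one another, were led by Sox6 in 2 lines and by Sox5 in the other. Sox6 had CPM of 9.39, 9.63 and 9.03 (control), 26.0, 23.0 and 18.4 (HD-het) and 0.195, 0.382 and 0.310 (HD-homo). The 3 lines did not overlap, and HD-homo libraries held 7 to 10 counts each. The log2 fold change was 1.27 (SE 0.14, adjusted p = 2.06e-05) in HD-het against control and -5.02 (SE 0.23, adjusted p = 1.65e-08) in HD-homo against control. Sox5 had CPM of 0.687, 0.499 and 0.451 (control), 0.531, 0.632 and 0.284 (HD-het) and 11.7, 14.4 and 22.7 (HD-homo). HD-homo cells were apart from both other lines at a log2 change of 4.89 (SE 0.31, adjusted p = 2.54e-07) against control, whereas control and HD-het overlapped (-0.09, SE 0.44, adjusted p = 0.866). Sox13 had CPM of 0.0764, 0.0951 and 0.113 (control), 0.266, 0.220 and 0.425 (HD-het) and 1.56, 1.80 and 1.51 (HD-homo). It rose in both mutant lines, by 1.57 (SE 0.42, adjusted p = 0.00747) in HD-het and 4.03 (SE 0.32, adjusted p = 1.57e-06) in HD-homo against control, and the control libraries held 2 to 4 counts. As a share of the summed SOXD level, Sox6 made up 93.6% in control and 96.6% in HD-het cells, and Sox5 made up 88.8% in HD-homo cells. The gene interval of Sox6 overlaps that of 1110004F10Rik, which has a row of its own, and the use of strand in the counting was not given in the sources used here.

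The SOXE genes, factors of glia, neural crest and cartilage, were higher in HD-homo than control cells. Sox9 had CPM of 20.1, 18.6 and 22.0 (control), 26.0, 20.0 and 17.8 (HD-het) and 59.5, 87.7 and 58.4 (HD-homo). HD-homo libraries lay above all others, with replicate 2 highest, at a log2 change of 1.76 (SE 0.18, adjusted p = 1.09e-05) against control, and control and HD-het overlapped (0.07, SE 0.18, adjusted p = 0.739). Per kilobase of coding sequence Sox9 reached 45.0 CPM in HD-homo cells, the highest level of any member in that line. Sox8 had CPM of 0.573, 0.761 and 0.903 (control), 2.81, 2.67 and 3.45 (HD-het) and 1.20, 1.91 and 1.02 (HD-homo). It was highest in HD-het at 1.98 (SE 0.26, adjusted p = 7.07e-05), and its rise in HD-homo cells, 0.88 (SE 0.28, adjusted p = 0.0248), was no longer called without HD-homo replicate 2 (0.58) or without control replicate 1 (0.72) or 2 (0.89). Sox10, the factor of oligodendrocytes and Schwann cells, stayed under 1 CPM in every library, at a mean CPM of 0.162 ± 0.0604 (control), 0.231 ± 0.0479 (HD-het) and 0.564 ± 0.138 (HD-homo; SD, n = 3), and differed between HD-homo and control at 1.82 (SE 0.36, adjusted p = 0.00174). Of the 1376 windows of 26 nt in Sox10, 44 also occur in another gene, most often in Sox9, whose level was far higher. The part of such fragments in the Sox10 counts was not tested.

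**Figure D3:**
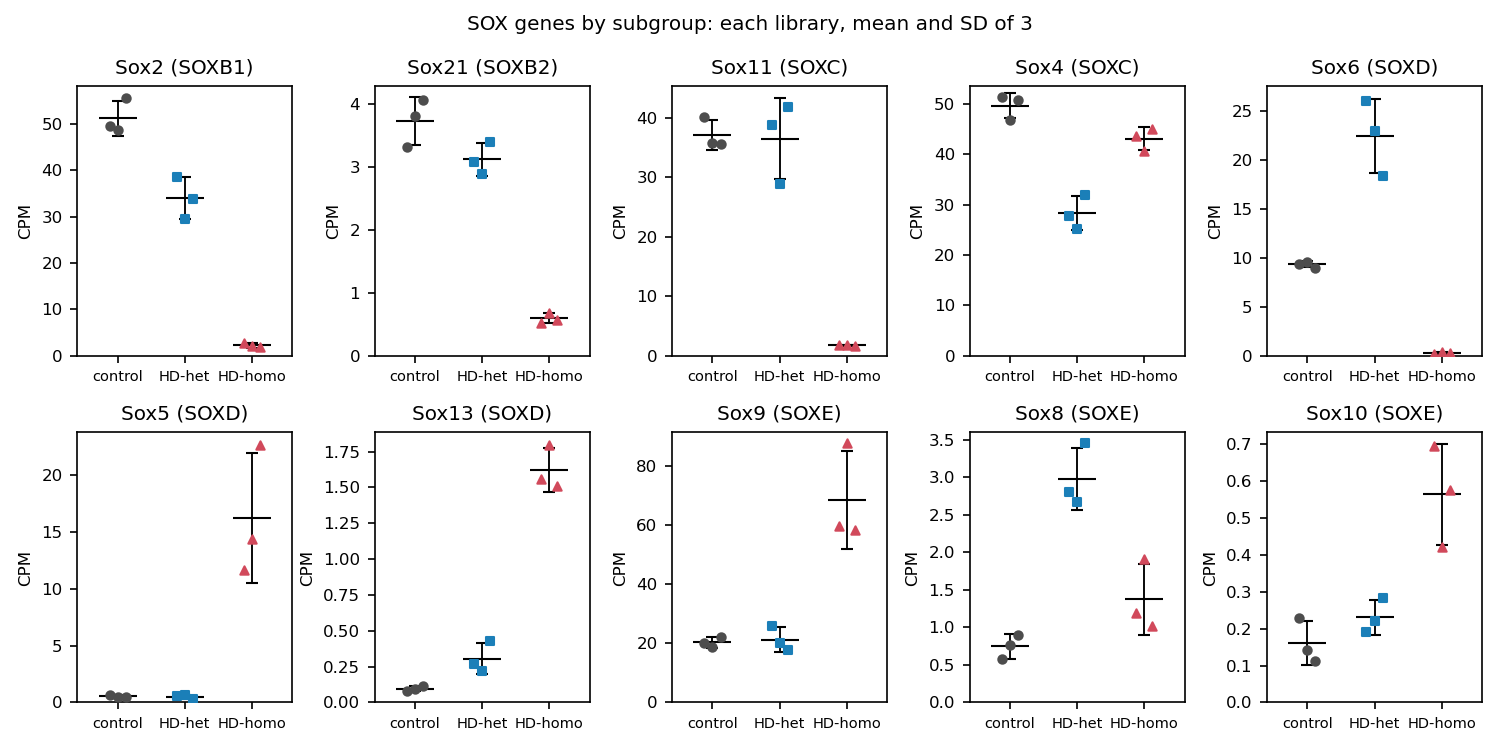
CPM of 10 SOX genes in each library, with the mean and SD of 3 libraries per line on axes that start at 0. Sox2, Sox21, Sox11 and Sox6 were lowest in HD-homo cells, and Sox5, Sox13, Sox9 and Sox10 highest.

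Genes that cartilage and glia express under SOXE control were looked at for their own levels. Of 16 symbols of SOX9 cartilage genes, 8 were tested: 4 rose and 0 fell in HD-het against control (median log2 fold change of those tested 2.41), 3 rose and 3 fell in HD-homo against control (median 0.16), and HD-homo was above HD-het in 2 and below it in 4 (median -0.87). Acan, the aggregating proteoglycan of cartilage, had a mean CPM of 3.50 ± 1.47 (control), 3.19 ± 1.23 (HD-het) and 39.2 ± 10.7 (HD-homo; SD, n = 3), and its log2 fold change in HD-homo against control was 3.46 (SE 0.33, adjusted p = 6.52e-06). Col11a1, a fibrillar collagen chain of cartilage, had a mean CPM of 46.0 ± 13.8 (control), 517 ± 81.9 (HD-het) and 5.93 ± 0.997 (HD-homo; SD, n = 3), with HD-het highest. Of 17 SOX10 genes of oligodendrocytes and Schwann cells, 6 were tested: 3 rose and 2 fell in HD-het against control (median log2 fold change of those tested 0.80), 3 rose and 1 fell in HD-homo against control (median 0.91), and HD-homo was above HD-het in 3 and below it in 2 (median 1.37). Pdgfra, the receptor of oligodendrocyte progenitors and also of fibroblasts, went from 3.81 ± 1.15 in control to 155 ± 36.6 CPM with HD-homo (SD, n = 3), while Mog, Olig2 and Gpr17 were at 0 in every library. Of 8 astrocyte markers, 3 were tested: 1 rose and 0 fell in HD-het against control (median log2 fold change of those tested -0.17), 0 rose and 0 fell in HD-homo against control (median -0.24), and HD-homo was above HD-het in 0 and below it in 1 (median -0.19). Aqp4 and Ntsr2 were at 0.

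The SOXF genes of endothelium, Sox7, Sox17 and Sox18, were all below the filter, with a summed level of at most 0.266 CPM in a library. Of 16 endothelial genes, 5 were tested: 3 rose and 1 fell in HD-het against control (median log2 fold change of those tested 0.61), 0 rose and 3 fell in HD-homo against control (median -1.97), and HD-homo was above HD-het in 1 and below it in 3 (median -2.64). Flt1, a VEGF receptor, fell from 100.5 ± 19.9 in control to 6.71 ± 2.52 CPM with HD-homo (SD, n = 3; log2 fold change -3.88, SE 0.26, adjusted p = 3.6e-07). Cldn5 and Emcn were at 0 in every library. Sox15 and Sox30 never exceeded 1 count.

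The FOXF and FOXC genes of mesenchyme differed widely between lines, and they lie close to each other in the genome. Foxf1 and Foxc2 lie 28.0 kb apart on chromosome 8, followed 8.79 kb further by Foxl1, and Foxq1, Foxf2 and Foxc1 follow each other on chromosome 13 with gaps of 64.8 and 175 kb. Foxf1, a Hedgehog-responsive factor of mesenchyme, had CPM of 10.6, 11.7 and 9.70 (control), 51.3, 50.3 and 56.5 (HD-het) and 2.50, 1.99 and 2.75 (HD-homo). The 3 lines were far apart, with HD-het 4.93-fold above and HD-homo 4.42-fold below control. The log2 fold change was 2.30 (SE 0.12, adjusted p = 6.86e-08) in HD-het and -2.14 (SE 0.13, adjusted p = 2.23e-07) in HD-homo against control, and -4.45 (SE 0.13, adjusted p = 6.94e-10) between the mutant lines. Foxc2, a factor of mesenchyme and lymphatic vessels, had CPM of 5.46, 6.42 and 6.32 (control), 5.88, 4.70 and 4.63 (HD-het) and 27.6, 26.2 and 32.2 (HD-homo). HD-homo libraries were 4.71-fold above control, at 2.23 (SE 0.13, adjusted p = 1.28e-07) against control, and HD-het overlapped control (-0.26, SE 0.14, adjusted p = 0.119), a difference that was called without HD-het replicate 1 (-0.39). The neighbours Foxf1 and Foxc2 thus had their highest levels in different lines. The gene models of both are spanned by the predicted readthrough gene Gm20388, which had no row of its own. Foxl1 was not tested and stayed at or below 0.266 CPM.

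Foxf2, the paralog of Foxf1 and a factor of brain pericytes, had CPM of 3.47, 4.33 and 3.99 (control), 10.1, 9.76 and 11.3 (HD-het) and 4.56, 3.82 and 3.59 (HD-homo). HD-het libraries lay above the rest, at 1.39 (SE 0.14, adjusted p = 8.76e-06) against control, while control and HD-homo overlapped (0.02, SE 0.14, adjusted p = 0.906). Foxc1, a factor of meninges and pericytes, had CPM of 8.48, 7.92 and 7.11 (control), 11.4, 9.38 and 9.27 (HD-het) and 20.1, 22.3 and 18.1 (HD-homo). It rose in both mutant lines, by 1.36 (SE 0.13, adjusted p = 5.14e-06) in HD-homo and by 0.35 (SE 0.13, adjusted p = 0.0315) in HD-het cells against control. The smaller rise was lost without HD-het replicate 1 (0.24) and without control replicate 2 (0.36) or 3 (0.29), with library totals alone (0.31) and without a filter on low counts (0.32). Foxq1, which regulates mucin production and is known from epithelial tumours, had CPM of 0.802, 0.856 and 0.639 (control), 2.47, 1.98 and 3.12 (HD-het) and 2.56, 2.71 and 2.97 (HD-homo). Both mutant lines lay above control, at 1.68 (SE 0.22, adjusted p = 6.77e-05) in HD-het and 1.82 (SE 0.22, adjusted p = 4.62e-05) in HD-homo cells, and they overlapped each other (0.14, SE 0.20, adjusted p = 0.549).

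**Figure D4:**
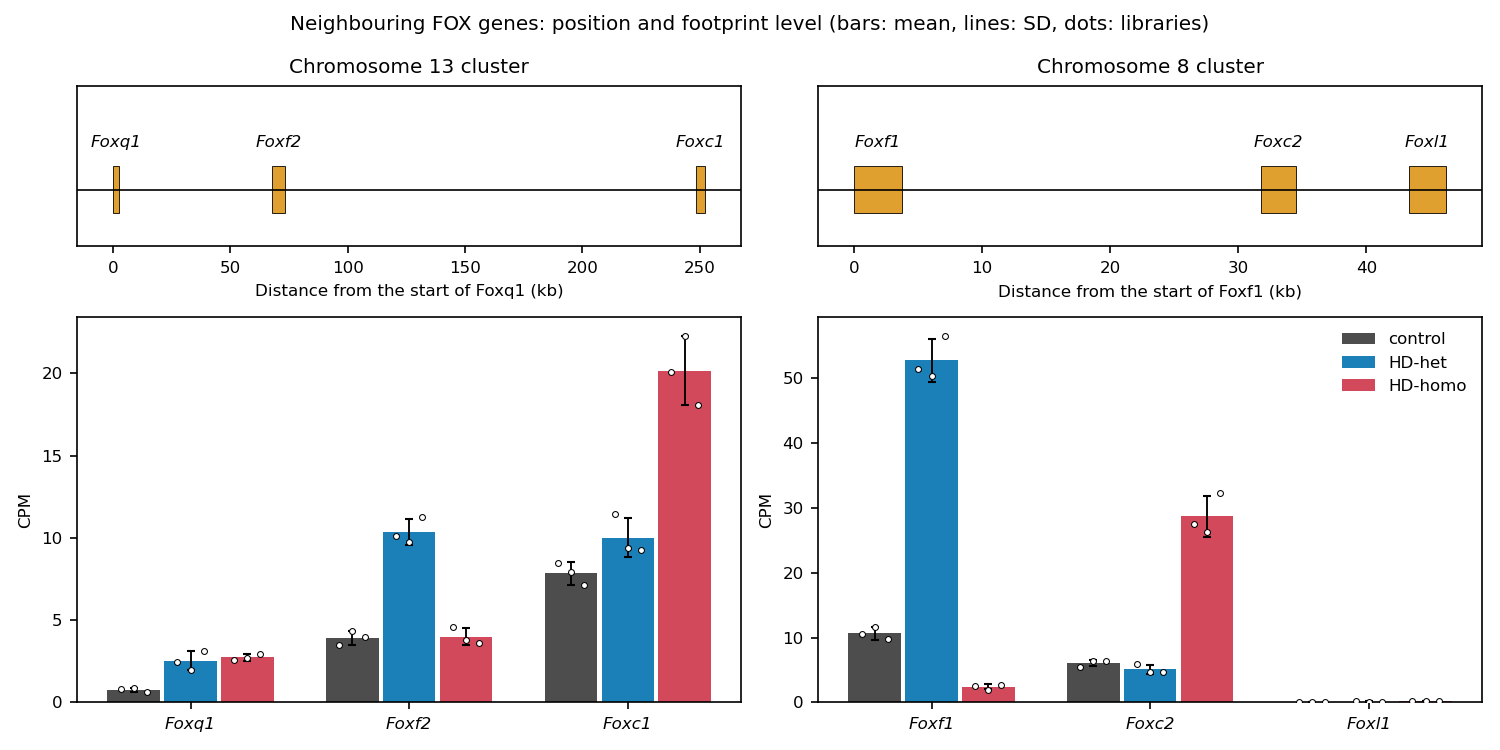
Top, gene positions of the chromosome 13 and chromosome 8 FOX clusters as distance in kb from the start of the first gene. Bottom, CPM per line with SD bars and each library as a dot, on axes from 0: Foxf2 and Foxf1 were highest in HD-het cells, Foxc1 and Foxc2 in HD-homo cells.

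Foxs1, a factor of pericytes and sensory neurons, was, like Foxf1, higher in HD-het and lower in HD-homo than control cells. It had CPM of 1.83, 1.64 and 1.81 (control), 5.73, 6.35 and 3.83 (HD-het) and 0.389, 0.306 and 0.798 (HD-homo), with no overlap between lines. The log2 fold change was 1.61 (SE 0.25, adjusted p = 0.000207) in HD-het and -1.86 (SE 0.33, adjusted p = 0.000742) in HD-homo against control. Foxd1, which marks stromal and pericyte precursors of several organs, went the other way. It had CPM of 5.08, 5.02 and 4.55 (control), 3.11, 2.20 and 2.65 (HD-het) and 7.09, 7.11 and 6.21 (HD-homo), at -0.89 (SE 0.15, adjusted p = 0.000446) in HD-het and 0.48 (SE 0.14, adjusted p = 0.0175) in HD-homo against control, of which the second was lost without control replicate 3 (0.43). Foxd2 stood at a mean CPM of 0.506 ± 0.0603 (control), 0.466 ± 0.124 (HD-het) and 0.739 ± 0.180 (HD-homo; SD, n = 3) and passed no test.

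Markers of mural cells and fibroblasts differed between the lines as well. Of 12 mural cell markers, 8 were tested: 7 rose and 0 fell in HD-het against control (median log2 fold change of those tested 1.49), 1 rose and 5 fell in HD-homo against control (median -0.53), and HD-homo was above HD-het in 0 and below it in 7 (median -2.36). Their summed level ran from 4448 to 5210 CPM (control), 11084 to 13114 CPM (HD-het) and 362 to 595 CPM (HD-homo), with Kcnj8 at 0 and Rgs5 and Vtn at no more than 3 counts in every library. Acta2, smooth muscle actin, had a mean CPM of 4099 ± 284 (control), 8386 ± 1047 (HD-het) and 267 ± 81.0 (HD-homo; SD, n = 3), and Pdgfrb, the pericyte receptor for PDGF-B, had a mean CPM of 45.9 ± 11.5 (control), 354 ± 61.0 (HD-het) and 56.3 ± 19.0 (HD-homo; SD, n = 3). Of 14 meningeal and mesenchymal fibroblast markers, 11 were tested: 6 rose and 2 fell in HD-het against control (median log2 fold change of those tested 0.65), 5 rose and 1 fell in HD-homo against control (median 0.32), and HD-homo was above HD-het in 7 and below it in 4 (median 0.76). Their summed level ran from 4456 to 8360 CPM (control), 27724 to 39339 CPM (HD-het) and 7686 to 10495 CPM (HD-homo), and Thy1 and Slc47a1 never exceeded 3 counts. Between the mutant lines this sum was higher in HD-het, whereas the median log2 fold change of 0.76 lay on the side of HD-homo. Called changes of at least 2-fold in HD-homo were 3 rises and 1 fall against control, and 4 rises and 4 falls against HD-het. Zic1, a zinc finger factor of meninges and cerebellum, rose in HD-homo cells at 3.34 (SE 0.20, adjusted p = 1.45e-07) against control, as did Col1a2 at 5.41 (SE 0.25, adjusted p = 2.07e-08). The part of these markers in the results for FOXF, FOXC, Foxs1 and Foxd1 was not tested. Of 8 microglia markers 1, Csf1r, was tested, with a log2 change of 1.62 (SE 0.33, adjusted p = 0.00211) in HD-homo against control, while Cx3cr1, Tyrobp and C1qa were at 0.

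Foxp1, a factor of striatal projection neurons and of many other cells, rose in both mutant lines. It had CPM of 32.4, 35.3 and 32.6 (control), 43.0, 42.5 and 43.7 (HD-het) and 61.9, 49.9 and 58.9 (HD-homo), with no overlap between lines, at 0.36 (SE 0.09, adjusted p = 0.00566) in HD-het and 0.77 (SE 0.09, adjusted p = 4.91e-05) in HD-homo against control and 0.40 (SE 0.09, adjusted p = 0.00251) between the mutant lines. Foxp2 was low, at a mean CPM of 0.316 ± 0.0782 (control), 0.221 ± 0.0630 (HD-het) and 0.593 ± 0.0677 (HD-homo; SD, n = 3). It was higher in HD-homo than HD-het (1.39, SE 0.33, adjusted p = 0.0029), and the difference from control, 0.88 (SE 0.30, adjusted p = 0.0336), was lost without each of 5 single libraries, namely HD-homo replicate 1 (0.77) or 3 (0.90) and control replicate 1 (0.70), 2 (1.06) or 3 (0.90). It was also lost with the replicate number as a block (0.91), in DESeq2 (0.89) and without a filter on low counts (0.86). Of the 2195 windows of 26 nt in Foxp2, 105 also occur in another gene, most often in Foxp1, whose level was far higher. The part of such fragments in the Foxp2 counts was not tested. Foxp4 had CPM of 21.3, 23.9 and 27.8 (control), 16.4, 15.9 and 15.1 (HD-het) and 21.9, 20.0 and 18.3 (HD-homo). It was lowest in HD-het cells, at -0.62 (SE 0.11, adjusted p = 0.00069) against control, and HD-homo did not pass against control (-0.28, SE 0.11, adjusted p = 0.0652), although it was called without HD-homo replicate 1 (-0.35) or without control replicate 1 (-0.38). Between the mutant lines it was 0.34 (SE 0.11, adjusted p = 0.02), lost without HD-het replicate 3 (0.31) or HD-homo replicate 1 (0.28). Foxp3, the factor of regulatory T cells, never exceeded 1 count.

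Markers of striatal projection neurons were set beside Foxp1. Of the 6 tested, 3 rose and 1 fell in HD-het against control (median log2 fold change of those tested 0.45), 2 rose and 1 fell in HD-homo against control (median 0.16), and HD-homo was above HD-het in 1 and below it in 3 (median -0.19). Meis2, a homeobox factor of striatal and other progenitors, had a mean CPM of 25.9 ± 1.87 (control), 38.1 ± 3.51 (HD-het) and 10.6 ± 2.16 (HD-homo; SD, n = 3). Penk, the enkephalin precursor of indirect pathway neurons, had a mean CPM of 1.42 ± 0.556 (control), 0.824 ± 0.158 (HD-het) and 2.92 ± 1.16 (HD-homo; SD, n = 3), at 1.00 (SE 0.33, adjusted p = 0.0287) in HD-homo against control. Ppp1r1b, the dopamine-regulated phosphatase inhibitor DARPP-32, was lower in HD-het than in control (-1.22, SE 0.47, adjusted p = 0.04). Unlike the calls of members, those of list genes, here and in the other lists, were not checked in DESeq2 or with 1 library left out.

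The FOXO genes, whose proteins are kept out of the nucleus by insulin and AKT signalling, had 2 members called against control, Foxo4 and Foxo6. Foxo1 had CPM of 40.8, 46.5 and 34.7 (control), 49.2, 51.3 and 37.0 (HD-het) and 50.2, 37.1 and 58.0 (HD-homo). The lines overlapped, and no comparison passed, with 0.17 (SE 0.17, adjusted p = 0.409) in HD-het and 0.25 (SE 0.17, adjusted p = 0.27) in HD-homo against control. Foxo3 stood at a mean CPM of 8.98 ± 1.29 (control), 8.82 ± 0.814 (HD-het) and 9.67 ± 1.78 (HD-homo; SD, n = 3) and passed no test either, with log2 fold changes of -0.03 and 0.11 against control. Foxo4 stood at a mean CPM of 5.60 ± 0.217 (control), 4.44 ± 0.137 (HD-het) and 5.57 ± 0.588 (HD-homo; SD, n = 3). It was lower in HD-het than in control at -0.34 (SE 0.13, adjusted p = 0.0371), a call that was lost in DESeq2 (-0.32), with the replicate number as a block (-0.33), with the offsets for GC content and coding length (-0.32) and without HD-het replicate 1 or 2 or any control replicate (-0.37 to -0.32). Its difference between the mutant lines, 0.33 (SE 0.13, adjusted p = 0.0391), was lost without any 1 library other than HD-homo replicate 1 (0.27 to 0.35). It was also lost in DESeq2 (0.31), with the replicate number as a block (0.32), with only the 6 libraries compared (0.30), without a filter (0.34) and with at least 10 counts in every library (0.30). Foxo6, the brain-enriched FOXO gene, had CPM of 0.955, 0.856 and 0.677 (control), 2.96, 2.20 and 1.56 (HD-het) and 0.612, 0.650 and 1.02 (HD-homo), and HD-het libraries lay above the others at 1.44 (SE 0.28, adjusted p = 0.000993) against control.

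The genes around FOXO proteins moved in both directions. Of 17 regulators and cofactors, all tested, 4 rose and 7 fell in HD-het against control (median log2 fold change of those tested -0.07), 3 rose and 7 fell in HD-homo against control (median -0.19), and HD-homo was above HD-het in 4 and below it in 5 (median -0.05). Insr, the insulin receptor, had a mean CPM of 26.1 ± 3.14 (control), 37.3 ± 3.07 (HD-het) and 11.8 ± 0.875 (HD-homo; SD, n = 3), higher in HD-het (0.51) and lower in HD-homo (-1.15) than in control, both called. Of 22 FOXO target genes, 18 were tested: 8 rose and 6 fell in HD-het against control (median log2 fold change of those tested 0.11), 4 rose and 6 fell in HD-homo against control (median 0.18), and HD-homo was above HD-het in 5 and below it in 8 (median -0.12). Fbxo32, the atrogin-1 ubiquitin ligase, rose in both mutant lines, with a mean CPM of 2.14 ± 0.218 (control), 11.3 ± 1.52 (HD-het) and 5.25 ± 0.0629 (HD-homo; SD, n = 3). Bcl6, a repressor, fell in both, with log2 fold changes of -1.49 and -0.83.

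Foxm1, the factor of G2 and M phase genes, did not pass any comparison. It stood at a mean CPM of 31.8 ± 2.04 (control), 33.4 ± 3.17 (HD-het) and 32.8 ± 4.28 (HD-homo; SD, n = 3), with a log2 change of 0.07 (SE 0.11, adjusted p = 0.607) in HD-het and 0.05 (SE 0.11, adjusted p = 0.774) in HD-homo against control. Of 23 FOXM1 target genes, all tested, 5 rose and 11 fell in HD-het against control (median log2 fold change of those tested -0.20), 6 rose and 3 fell in HD-homo against control (median 0.02), and HD-homo was above HD-het in 12 and below it in 7 (median 0.26). Ccnb2, cyclin B2, rose in both mutant lines, with log2 fold changes of 1.50 and 1.33 against control, and Aspm, a spindle protein, was -0.96 in HD-homo against control, called as well. No target of the list was lower by 2-fold in HD-het or HD-homo than in control.

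The FOXJ, FOXK and FOXN genes are broadly expressed apart from Foxj1, Foxn1 and Foxn4. Foxj3 had CPM of 48.7, 51.4 and 50.1 (control), 45.0, 49.1 and 46.4 (HD-het) and 54.5, 49.6 and 51.1 (HD-homo), among the highest of all members, and passed no comparison, with -0.10 (SE 0.08, adjusted p = 0.305) in HD-het and 0.05 (SE 0.08, adjusted p = 0.652) in HD-homo against control. With the offsets for GC content and coding length it was called in HD-het against control (-0.20), and with library totals alone between the mutant lines (0.22). Foxn2 had CPM of 38.0, 37.1 and 38.7 (control), 28.6, 30.0 and 26.4 (HD-het) and 37.6, 41.2 and 44.7 (HD-homo). It was lowest in HD-het, at -0.42 (SE 0.09, adjusted p = 0.00198) against control, and HD-homo overlapped control. Foxn3 stood at a mean CPM of 4.28 ± 0.0935 (control), 5.78 ± 0.413 (HD-het) and 6.27 ± 0.418 (HD-homo; SD, n = 3) and was higher in both mutant lines, at 0.43 (SE 0.12, adjusted p = 0.00934) in HD-het and 0.55 (SE 0.12, adjusted p = 0.00311) in HD-homo against control. Foxk2 stood at a mean CPM of 25.2 ± 0.405 (control), 19.4 ± 1.25 (HD-het) and 21.8 ± 0.951 (HD-homo; SD, n = 3) and was lower in HD-het (-0.37, SE 0.09, adjusted p = 0.00324), and its paralog Foxk1 passed no test (-0.15 and 0.19 against control). Foxj2 stood at a mean CPM of 4.90 ± 0.343 (control), 6.04 ± 0.113 (HD-het) and 4.43 ± 0.660 (HD-homo; SD, n = 3) and was called between the mutant lines only (-0.45, SE 0.14, adjusted p = 0.0123). Foxn1, the factor of thymic epithelium, stood between 0.662 and 1.20 CPM and passed no test.

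Foxj1, the master gene of motile cilia, was found at trace level in control cells. It had 10, 23 and 10 counts in control, 1, 4 and 1 in HD-het and 1, 1 and 0 in HD-homo libraries. The summed counts of control were 19.2-fold those of HD-homo after scaling, with a 95% counting interval of 5.00 to 164, and edgeR called both differences from control (adjusted p = 0.000737 and 0.000207). Its fitted log2 fold change in HD-het, -2.58, was -3.29 without HD-het replicate 2. Of 18 genes of motile cilia, 6 were tested: 2 rose and 1 fell in HD-het against control (median log2 fold change of those tested 0.67), 0 rose and 4 fell in HD-homo against control (median -1.40), and HD-homo was above HD-het in 1 and below it in 4 (median -1.73). Tppp3, a tubulin-polymerizing protein that is not limited to ciliated cells, had a mean CPM of 3.87 ± 0.550 (control), 9.88 ± 1.18 (HD-het) and 0.145 ± 0.109 (HD-homo; SD, n = 3), while Dnah5, Dnah9, Dnah11, Tekt1 and 3 other genes of the list never exceeded 3 counts.

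The T-box genes held the largest single difference of all members. Tbx20, a factor of heart and of hindbrain motor neurons, had CPM of 26.4, 27.1 and 29.5 (control), 8.39, 8.66 and 6.52 (HD-het) and 0.0556, 0.115 and 0.0887 (HD-homo). The lines did not overlap. The HD-homo libraries held 2, 3 and 2 counts, so the summed counts of control were 333-fold those of HD-homo after scaling, with a 95% counting interval of 162 to 830, and those of HD-het were 97.2-fold, with an interval of 46.9 to 243. edgeR gave -1.81 (SE 0.12, adjusted p = 7.4e-07) in HD-het against control and adjusted p = 4.63e-10 in HD-homo against control. Tbx3, a repressor of the heart conduction system, limb and mammary gland, had CPM of 16.9, 17.8 and 19.9 (control), 7.17, 7.18 and 7.99 (HD-het) and 5.42, 6.80 and 5.45 (HD-homo). Both mutant lines lay below control, at -1.29 (SE 0.12, adjusted p = 6.4e-06) in HD-het and -1.63 (SE 0.12, adjusted p = 1.15e-06) in HD-homo cells. The step between the mutant lines, -0.34 (SE 0.13, adjusted p = 0.0362), was lost with library totals alone (-0.25), with the offsets (-0.20), without a filter (-0.32), with only the 6 libraries compared (-0.36) and without any 1 library other than HD-homo replicate 2 and control replicate 3 (-0.36 to -0.27).

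Tbx15 and Tbx18, relatives of Tbx20 that act in mesenchyme, differed from it. Tbx15, a factor of skeletal and skin mesenchyme, had CPM of 13.8, 15.4 and 15.5 (control), 24.5, 26.7 and 27.4 (HD-het) and 32.1, 45.2 and 31.4 (HD-homo). It rose in both mutant lines, at 0.81 (SE 0.14, adjusted p = 0.000403) in HD-het and 1.28 (SE 0.14, adjusted p = 1.91e-05) in HD-homo against control, with no overlap between lines. Tbx18, a marker of mural cells and of the epicardium, stood at a mean CPM of 7.65 ± 0.175 (control), 9.33 ± 0.314 (HD-het) and 8.05 ± 2.24 (HD-homo; SD, n = 3) and passed no test (0.29 and 0.07 against control). As a share of summed T-box footprints, Tbx20 made up 40.3% in control cells, whereas Tbx15 was 51.3% of the HD-het sum and 71.0% of the HD-homo sum. The other 9 T-box genes of the pattern were below the filter, and Tbx5, the heart and forelimb factor, never exceeded 1 count.

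Genes that work with T-box factors in the heart were looked at in the same way. Of 18 such genes, 10 were tested: 1 rose and 3 fell in HD-het against control (median log2 fold change of those tested -0.50), 1 rose and 6 fell in HD-homo against control (median -0.81), and HD-homo was above HD-het in 4 and below it in 6 (median -0.62). Gata6, a zinc finger factor of heart and endoderm, rose from 0.263 ± 0.0610 in control to 4.00 ± 0.132 CPM with HD-homo (SD, n = 3; log2 fold change 3.86, SE 0.22, adjusted p = 1.01e-07). Mef2c, a factor of muscle, heart and neurons, had a mean CPM of 4.00 ± 0.494 (control), 10.3 ± 1.02 (HD-het) and 0.910 ± 0.386 (HD-homo; SD, n = 3), higher in HD-het (1.37) and lower in HD-homo (-2.09) than in control, both called. Tnnt2, cardiac troponin T, fell in HD-homo cells, with a log2 change of -2.86 (SE 0.25, adjusted p = 3.09e-06) against control. Hand1 was at 0 in every library, and Hand2, Isl1, Nppa and 3 other genes of the list never exceeded 3 counts.

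Some genes of these families have symbols outside the pattern. Mga, which joins a T-box to a MAX-like domain, had a mean CPM of 68.0 ± 3.19 (control), 57.9 ± 6.50 (HD-het) and 64.0 ± 7.76 (HD-homo; SD, n = 3), with no call. Brachyury (T) and Sry were at 0, Tbr1 had at most 2 counts and Eomes at most 6 counts in a library. Rows of the noncoding neighbours Sox2ot, Fendrr and Foxd2os were at 0 in every library, but 10169 long noncoding RNA rows of the table held counts in only 29 cases, so a 0 there says nothing of these RNAs. Of 17 cofactors of SOX, FOX and T-box proteins, all tested, 6 rose and 4 fell in HD-het against control (median log2 fold change of those tested 0.21), 1 rose and 4 fell in HD-homo against control (median -0.14), and HD-homo was above HD-het in 3 and below it in 7 (median -0.15). With Pou3f3 at the bound given next, and without Pou3f1 and Pou3f2, which never exceeded 3 counts in a control or HD-homo library, the second of these medians was -0.0043. Pou3f3 and Pou3f2, POU factors that bind DNA next to SOXB1 and SOXC proteins, had a mean of 8.81 ± 1.19 and 1.62 ± 0.399 CPM with HD-het (SD, n = 3) and 0 counts in each HD-homo library. With the same floor, HD-homo was at least 79.8-fold and at least 14.7-fold lower than HD-het.

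Among the other members below the filter, a few had more counts in 1 line than in the others. Foxl2, the ovary factor, had 5 to 13 counts in control, 0 to 3 in HD-het and 3 to 5 in HD-homo libraries. Foxa1, the pioneer factor of endoderm, had 2, 9 and 10 counts in HD-homo and at most 2 in every other library. Foxe1, the thyroid factor, had 6, 3 and 1 counts in HD-het and 0 in all others. These are counts near the limit of detection and were not tested.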

How the data were processed

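Ribosome-protected fragments of 9 libraries, 3 per cell line, were analysed. The authors deposited 1 table of raw counts per gene symbol with 36410 rows, of which 19597 were at 0 in every library. The submitters' processing notes name cutadapt, Bowtie 1.0.1 and the mm10 build; the counting program, its annotation and its use of strand were not given in the sources used here. Library totals ran from 22504543 to 41888701 counts. Symbols altered to dates made up 26 rows and 0.252% of counts, and were not renamed.

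Counts were tested with edgeR 4.0.16 in R 4.3.3 (TMM scaling, filterByExpr by line, quasi-likelihood F test) in 1 fit of all 9 libraries, with Benjamini-Hochberg adjustment over 12678 genes and a threshold of 0.05. Standard errors were taken from the F statistic. The alternatives were RLE scaling, library totals, DESeq2 1.42.0, all genes kept, a minimum of 10 counts per library, only the 6 libraries compared, a replicate block, a stricter adjusted p of 0.01, a minimum fold of 2, and each library left out. Offsets for GC content and coding length were added after seeing the data, since the median GC content of tested members was 62.2% against 52.9% over all tested genes. On simulated counts for HD-het against control with 12538 genes, the test recovered 40% of 1.5-fold, 81.6% of 2-fold, 97.9% of 4-fold and 100% of 8-fold changes. Only 48 to 50 genes were changed at each fold, whereas 60.1% of all tested genes were called in the data. The adjustment for many tests differs between the 2 settings, so these shares need not hold for the data.

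Members were taken by symbol pattern. The values of 1 member and of 1 marker gene are not reported here, but both stay in the counts and sums. The members, the gene lists and the tests were chosen with earlier results of these data known. Values of every library are given for the 6 largest rises and falls past the threshold in each comparison with at least 1 CPM in the higher line, and for the 10 members highest per kilobase; Tbx15 was added after its values were seen. From each list at most 2 rising and 2 falling genes per comparison were eligible to be named, and genes at or near 0 were named as markers. Where a line had at most 3 counts in each library, the ratio of summed counts is given with its exact 95% counting interval. Coding sequences and shared windows came from GENCODE M21 on GRCm38, the same assembly as mm10. Gene intervals came from the RefSeq annotation of that assembly.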

Additional observations from a re-analysis of the deposited data

Results flagged for a closer look

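Among the 36 members too low to be tested, 4 had every library of a mutant line above every control library and a mean above 0.142 CPM, the highest level that a count of 0 allows. The share of all genes below the filter that meet this rule was not worked out, so nothing is read from the number of such members. Foxl1 had a mean of 0.249 CPM in HD-homo cells, from 9, 6 and 6 counts, against 2, 4 and 1 counts in control. Tbx2 had a mean of 0.266 CPM in HD-homo cells, from 7, 10 and 5 counts, against 0, 0 and 4 in control. Sox7 had a mean of 0.166 CPM in HD-homo cells, from 6, 4 and 4 counts, against 1, 1 and 0 in control. Foxn4 had a mean of 0.210 CPM in HD-het cells, from 8, 5 and 4 counts, against 0, 3 and 0 in control and 0 in each HD-homo library. Every library also lay above the control libraries for Foxe1 and Sox7 in HD-het and for Foxb1, Foxb2 and Sox17 in HD-homo cells, at means under 0.142 CPM. None of these differences was tested.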

How the results depend on the processing

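The minimum fold of 2 is left out of the next counts of calls and is given on its own below. Of 73 calls of members in the 3 comparisons, 63 were kept under every other alternative that tested them. The remaining 10 were lost under at least 1, and none changed direction. Of 18 named differences that were not called, 5 passed under at least 1 alternative. With at least 10 counts in every library, 6 members were lower in HD-homo than in control cells; that filter removes genes that are near 0 in 1 line. With a change of at least 2-fold required, 8 rose and 3 fell in HD-het against control, and 8 rose and 9 fell in HD-homo against control. Under that requirement HD-homo was above HD-het for 8 and below it for 10. Leaving out 1 library at a time gave 11 to 14 higher and 8 to 10 lower members in HD-het against control, 11 to 13 higher and 10 to 12 lower in HD-homo against control, 12 to 15 higher and 12 to 14 lower in HD-homo against HD-het, and 30 to 32 that differed among the lines. Same-numbered libraries of different lines did not deviate together (r of -0.356 to 0.175 across genes), and r ran from -0.275 to 0.376 for differently numbered ones. This check showed no pairing by replicate number, but with 3 libraries per line it cannot exclude one. With the replicate block, 12 members rose and 9 fell in HD-het and 12 rose and 10 fell in HD-homo against control, HD-homo was above HD-het for 14 and below it for 13, and 30 differed among the lines.

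Some differences that passed no test changed sign, and the cause was not tested. In HD-homo against control, Foxf2 ran from -0.091 to 0.10 with 1 library left out, and Foxj3 was -0.017 with the offsets for GC content and coding length. Between the mutant lines, Foxo1 ran from -0.068 to 0.24 and Foxq1 from -0.022 to 0.31 with 1 library left out. In HD-het against control, Sox11 was 0.00049 with at least 10 counts in every library and 0.13 with the offsets, and Sox21 was 0.049 with the offsets. With 1 library left out in that comparison, Sox11 ran from -0.16 to 0.10, Sox5 from -0.38 to 0.10 and Sox9 from -0.11 to 0.16. Among the lists, the median of FOXO regulators and cofactors between the mutant lines was -0.05, and 0.03 with library totals. Depth limits the members below the filter, where a count of 0 allows up to 0.142 CPM.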
